A study of Sus scrofa with 6 samples.

Results

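The transcripts described here are those of 10 genes that p53 switches on: CDKN1A, CCNG1, BTG2, GADD45A, PLK2, PLK3, BAX, SESN1, RRM2B and ZMAT3. They were taken as every probe set that the array's annotation gives to 1 of these symbols, which found 12 of the 23999 probe sets and at least 1 for each gene. SESN1 and PLK3 had 2 probe sets each. The probe sets were found by annotation alone, while the list of genes was drawn up with earlier results of these data known. The study is about DJ-1, the product of PARK7 and a protein that responds to oxidation, in pig nuclear transfer (NT) embryos, which are made by putting the nucleus of a cultured cell into an oocyte. Loss of DJ-1 has been tied to embryo arrest through p53, which is the question these genes address.

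The samples, of 4 kinds, were measured on the Affymetrix porcine array. NT embryos injected with an antibody against DJ-1 gave 2 arrays, NT embryos injected with control IgG gave 2, NT embryos without injection gave 1, and the donor cells gave 1. All embryos came from slaughterhouse oocytes, were cultured in PZM-3 and were collected 28 h after transfer, when many had just reached the 2-cell stage. Each embryo array is a pool of 23 to 26 embryos. The donor cells, adult Meishan fibroblasts grown in DMEM with serum, supplied the nuclei of the embryos. By the replicate numbers in the sample titles, each kind has 1 array in trial 1, and trial 2 added a separate anti-DJ1 pool and a separate IgG pool. The antibody acts on the protein, so no transcript checks that the block worked, and no other check of it was used here.

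p53 is a transcription factor that is held at a low level by degradation in resting cells and is stabilised when DNA is damaged, replication stalls or oxidants accumulate. Its targets halt the cell cycle, repair DNA, limit oxidants or start cell death. Around the first cleavages an embryo lives mostly on RNA stored by the oocyte, so a transcript measured at that stage can be one the oocyte made, whatever the embryo's own p53 does.

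Values are MAS5 signals, the array maker's summary of a probe set, on a linear scale that is common to the arrays, with a trimmed mean between 500.1 and 500.2 on each. Signals of different probe sets are not on a shared scale and are not compared with each other. The highest Tag control, a probe set with no pig transcript, ranged from 21.4 to 47.0 and served as each array's background level. Of 11 fibroblast markers measured, 7 to 9 were above background on an embryo array and 9 on the donor cell array. They summed to 1489 to 2039 in embryos against 43027 in donor cells, a sum made mostly by VIM, with 348 to 422 in embryos against 31965 in donor cells. THY1 stood at 68.4 to 108 in embryos against 6443 in donor cells, and S100A4 and TIMP1 were also higher in donor cells. FBN1 (366 to 635 in embryos against 731) and COL1A2 (210 to 355 against 459) lay closer together, COL5A2 and COL6A3 overlapped, DCN was higher in embryos (54.7 to 111 against 5.58) and LUM was within the background on every array. All 7 oocyte markers measured were above background on every embryo array, and summed to 63343 to 110203 in embryos against 215 in donor cells. Of 10 cumulus and granulosa markers, 3 to 5 were above background on an embryo array and 3 on the donor cell array, with summed signals of 1568 to 2080 in embryos against 949 in donor cells and FSHR, CYP11A1, AMH, PTX3 and TNFAIP6 within it on every array. The ratio of 3′ to 5′ signal of EF1A, which rises as labelled RNA gets shorter, was 24.2 in trial 1 and 8.20 in trial 2 for anti-DJ1 embryos, 23.9 and 9.34 for IgG embryos, 30.0 for non-injected embryos and 4.23 for donor cells.

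Among the genes that hold the cell cycle, CDKN1A encodes p21, the inhibitor of cyclin-dependent kinases that is the best known p53 target. Its signal was 261 and 511 in anti-DJ1 embryos of trials 1 and 2, 215 and 508 in IgG embryos, 371 in non-injected embryos, with 1702 in donor cells. The 2 injected groups overlapped, and the non-injected array lay between the trials. CCNG1, which encodes cyclin G1 and takes part in the feedback on p53, had 6874 and 6230 in anti-DJ1 embryos, 6374 and 5076 in IgG embryos, 5223 in non-injected embryos, with 10364 in donor cells. BTG2, an antiproliferative gene whose protein promotes mRNA deadenylation, had 62.1 and 59.6 in anti-DJ1 embryos, 44.1 and 93.5 in IgG embryos, 111 in non-injected embryos, with 279 in donor cells. For BTG2 every embryo array was above background, and both anti-DJ1 arrays lay between the IgG arrays. GADD45A, a stress sensor that acts in growth arrest and DNA repair, had 138 and 303 in anti-DJ1 embryos, 170.4 and 178 in IgG embryos, 121 in non-injected embryos, with 3013 in donor cells. The IgG arrays of GADD45A lay close together and between the anti-DJ1 arrays.

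The polo-like kinases PLK2 and PLK3, stress-responsive relatives of the mitotic kinase PLK1, stood on opposite sides of their level in donor cells. PLK2 had 45.2 and 73.9 in anti-DJ1 embryos, 62.1 and 67.3 in IgG embryos, 34.5 in non-injected embryos, with 1233 in donor cells. Only the non-injected array of these was within its background level, which was 47.0. The brighter PLK3 probe set, Ssc.15898.1.S1_at, had 427 and 920 in anti-DJ1 embryos, 221 and 991 in IgG embryos, 612 in non-injected embryos, with 5.16 in donor cells, where it was within the background. The other, Ssc.15898.1.A1_at, ranged from 2.31 in donor cells to 27.0 in IgG embryos of trial 1 and was above background on that 1 array alone, so it gives no level for PLK3.

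BAX, which opens the outer mitochondrial membrane in apoptosis, was close to the background of the arrays. It had 25.9 and 70.3 in anti-DJ1 embryos of trials 1 and 2, 7.08 and 58.2 in IgG embryos, 49.9 in non-injected embryos, with 109 in donor cells. Both injected arrays of trial 1 lay within the background and the other 4 arrays above it. In embryos, BAX therefore has a measured level on 3 of 5 arrays.

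The remaining genes act against oxidants, in nucleotide supply or on RNA. SESN1, an antioxidant protein that also restrains the growth kinase complex mTORC1, had 1141 and 1181 in anti-DJ1 embryos, 1045 and 1308 in IgG embryos, 1058 in non-injected embryos, with 594 in donor cells on its brighter probe set, Ssc.9611.1.A1_at. On the dimmer one, Ssc.7070.1.S1_at, it had 249 and 185 in anti-DJ1 embryos, 244 and 235 in IgG embryos, 98.0 in non-injected embryos, with 169 in donor cells. The SESN1 probe sets thus differ in where the non-injected embryos and the donor cells stand. RRM2B, the p53-inducible small subunit of ribonucleotide reductase, had 18887 and 11964 in anti-DJ1 embryos, 17231 and 14459 in IgG embryos, 15651 in non-injected embryos, with 184 in donor cells. ZMAT3, a zinc finger protein that binds RNA, had 1051 and 1057 in anti-DJ1 embryos, 1134 and 970 in IgG embryos, 1362 in non-injected embryos, with 261 in donor cells. For both genes each embryo array stood far above the donor cell array, while the embryo groups lay close together.

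**Figure D1:**
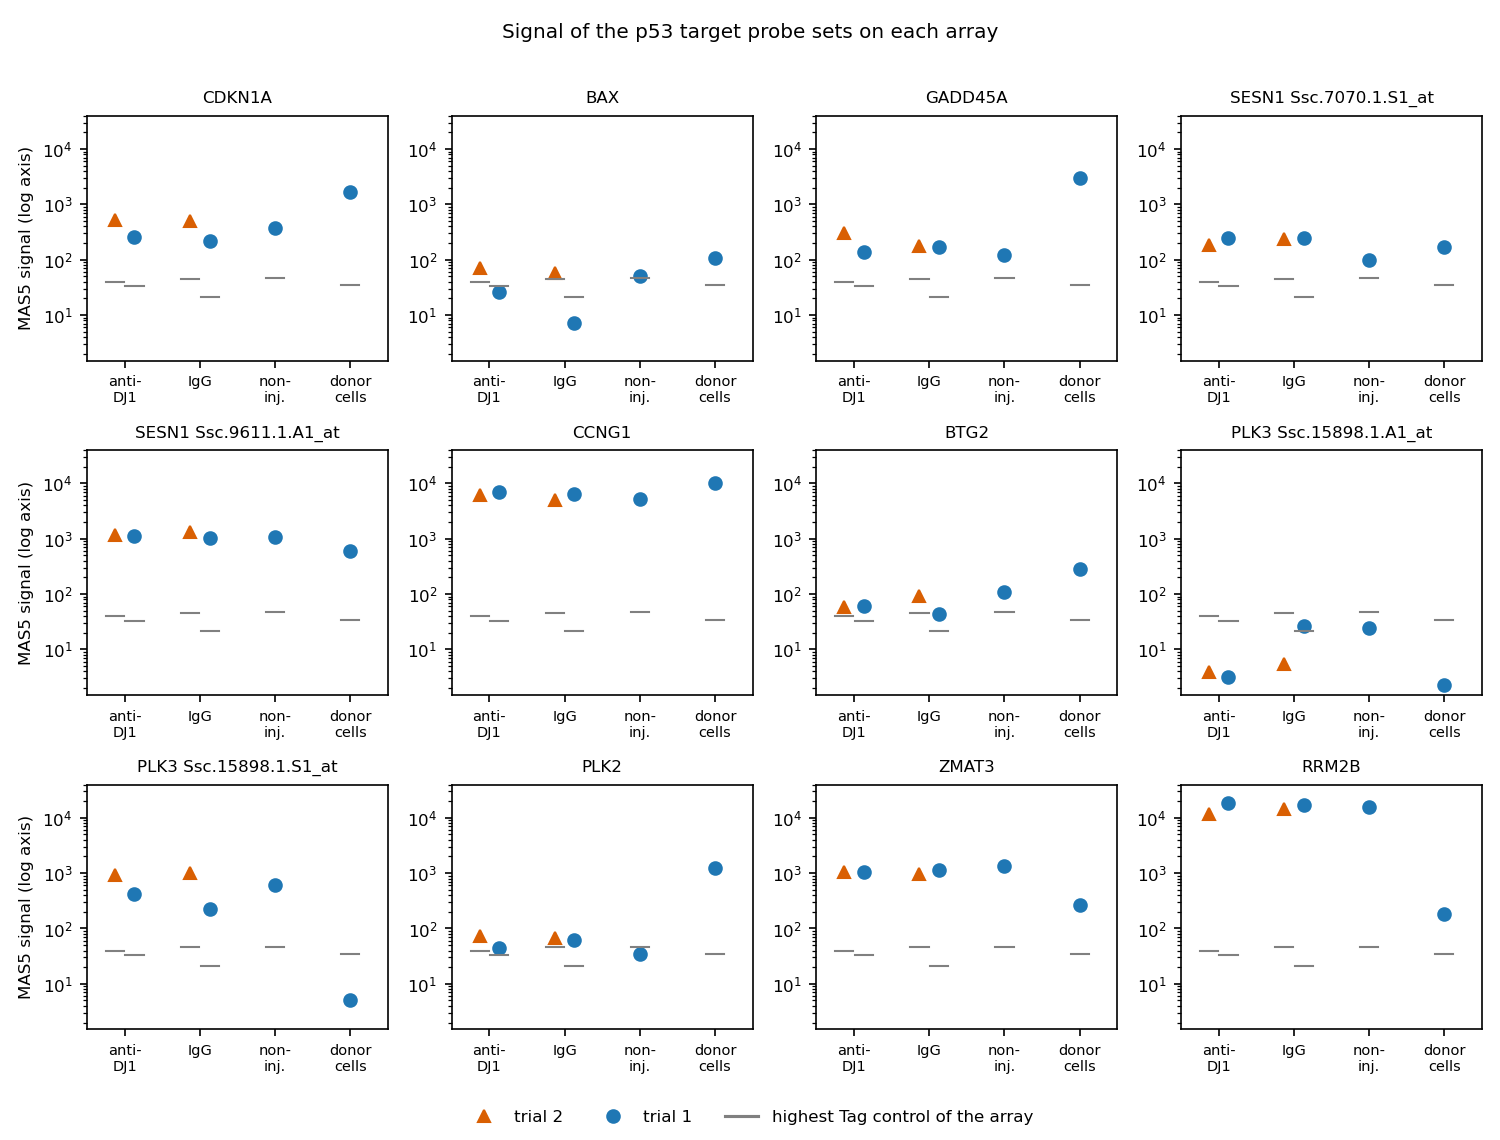
MAS5 signal (log axis) of the 12 probe sets on each of the 6 arrays, by group, with triangles for trial 2, circles for trial 1 and grey bars for the highest Tag control of the same array. CDKN1A, CCNG1, BTG2, GADD45A, PLK2 and BAX are highest in donor cells. PLK3 and SESN1 on their brighter probe sets, ZMAT3 and RRM2B are higher on all 5 embryo arrays than in donor cells. The 2 injected groups overlap on all but the dimmer PLK3 probe set, which is above background on 1 array. How often they overlap over all probe sets was not counted.

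For tests, signals were taken as log2(signal + 4.60), and probe sets in the upper 60% by mean signal went into a single limma fit of the 6 arrays that had terms for group and for trial. The threshold was a Benjamini-Hochberg adjusted p of 0.05 over the 14399 probe sets tested. Of the 12 probe sets, 10 were tested, covering 9 genes. BAX, with a mean signal of 53.4, fell just short of the lowest mean tested, 54.4, and the dim PLK3 probe set had a mean of 11.0. PLK2 lay near it in embryos, with a mean of 56.6 over the 5 embryo arrays, and PLK3, at 5.16 in donor cells, was tested through its level in embryos.

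Anti-DJ1 and IgG embryos did not differ detectably in any p53 target tested. On simulated data with 200 changed probe sets the fit called 49% of changes of log2 1 in this comparison, and 16.8% of its calls were false. A change of that size can thus be missed. The share called when fewer probe sets change was not simulated, so 49% does not give the power for a few changed genes. Of the 10 probe sets 0 passed in limma, against 0% of all 14399, and 0 had an unadjusted p under 0.05, against 812 of all. The median log2 change of the 10 was -0.0011 and that of all tested probe sets -0.0062, with 5 of the 10 positive. The p53 effector CDKN1A stood at 0.14 ± 0.17 on the log2 scale (SE, n = 2 arrays in each group; adjusted p = 0.962 in limma). Its difference was 0.27 within trial 1 and 0.0080 within trial 2. GADD45A stood at 0.23 ± 0.26 (adjusted p = 0.957), and trial 1 gave -0.29 where trial 2 gave 0.75, so its trials pointed in opposite directions.

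The gene with the lowest adjusted p was CCNG1, at 0.20 ± 0.11 (adjusted p = 0.913), from 0.11 within trial 1 and 0.30 within trial 2. PLK3 had the highest estimate, at 0.42 ± 0.26 (adjusted p = 0.920), which came from 0.94 in trial 1 and -0.11 in trial 2. BTG2 was at -0.08 ± 0.38, from 0.45 and -0.61 within trials 1 and 2, and PLK2 at -0.15 ± 0.34, with -0.42 and 0.13. CDKN1A and CCNG1 were the 2 of the 10 that had the same sign in both trials, and 51.3% of all tested probe sets did so.

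The width of the confidence interval differed between the genes. With 1 residual degree of freedom and 9.18 prior ones, this width rests mostly on the spread of probe sets of like signal. It rests little on the gene's own spread. For RRM2B (-0.07 ± 0.12), ZMAT3 (0.0079 ± 0.15) and SESN1 on the brighter probe set (-0.01 ± 0.14), the 95% confidence interval reached no further than 1.26-fold, 1.26-fold and 1.25-fold to either side. For CCNG1 it ran from -0.03 to 0.44 on the log2 scale, and for CDKN1A from -0.25 to 0.53, which allows a 1.44-fold higher level in anti-DJ1 embryos. For SESN1 on the dimmer probe set (-0.16 ± 0.24), GADD45A, PLK2, BTG2 and PLK3 the farther end of the interval lay at 1.62, 1.74, 1.87, 1.89 and 1.99-fold. BAX was not tested here. In the alternative that selects probe sets by mean log2 signal, it stood at 0.82 ± 0.55 (limma, adjusted p = 0.927), and the trial 1 part of that value, 1.39, lay within the background on both arrays.

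**Figure D2:**
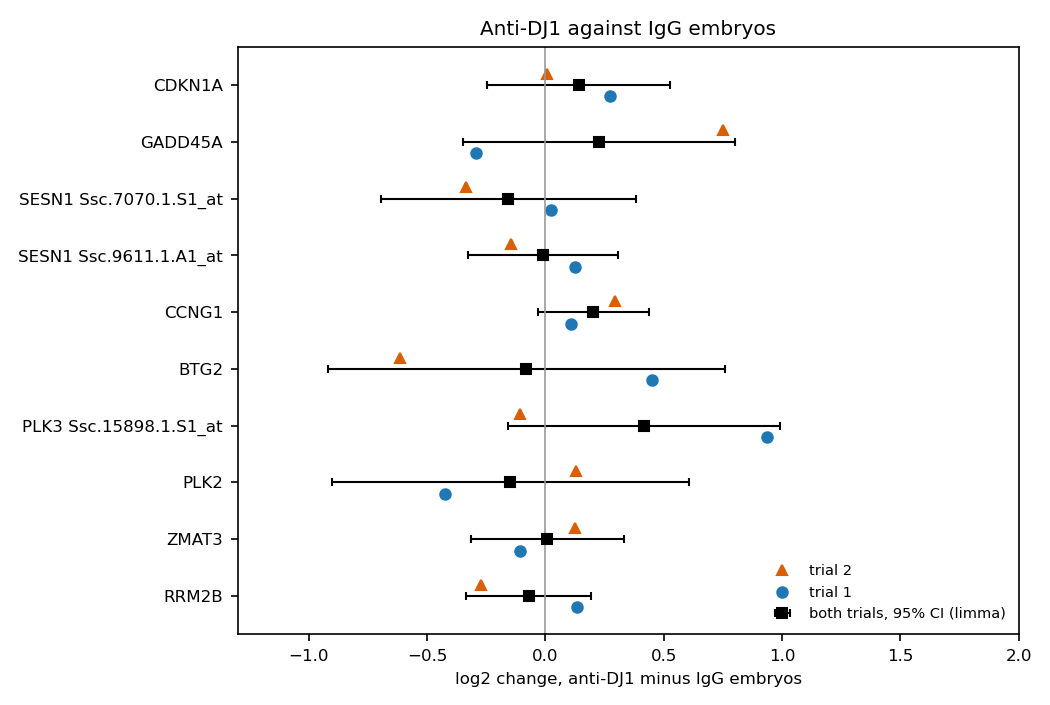
Log2 change of the 10 tested probe sets in anti-DJ1 minus IgG embryos: squares are the limma estimate over both trials with its 95% confidence interval, triangles the difference in trial 2 and circles that in trial 1. Every interval includes 0, and the trials lie on opposite sides of 0 for 8 of the 10.

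The comparison with non-injected embryos addresses the injection itself. Here too 0 of the 10 p53 target probe sets passed, for anti-DJ1 against non-injected embryos and for IgG against non-injected embryos. Over all 14399 probe sets, 149 (1.03%) passed for anti-DJ1 (105 higher, 0.729%, and 44 lower, 0.306%; 100 and 24 under quantile normalization) and 68 (0.472%) for IgG (57 higher, 0.396%, and 11 lower, 0.0764%). Both comparisons use the same single non-injected array, which is assumed to vary as the replicated groups do, so their likeness is not independent evidence. Without the trial term 0 probe sets passed in either. The EF1A ratio of the non-injected array, 30.0, was above the 8.20 to 24.2 of the injected arrays, and its part in these differences was not tested.

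The p53 target nearest the threshold was SESN1 on its dimmer probe set. It stood at 1.21 ± 0.32 on the log2 scale in anti-DJ1 embryos (SE, limma, adjusted p = 0.0909) and at 1.37 ± 0.32 in IgG embryos (adjusted p = 0.0839), with all 4 injected arrays above the non-injected one. The brighter SESN1 probe set stood at 0.04 ± 0.19 and 0.05 ± 0.19. CDKN1A stood at -0.57 ± 0.23 in anti-DJ1 (adjusted p = 0.227) and -0.71 ± 0.23 in IgG embryos (adjusted p = 0.161), within trial 1 at -0.50 and -0.77. PLK3 stood at -0.78 ± 0.34 (adjusted p = 0.267) and -1.19 ± 0.34 (adjusted p = 0.122), within trial 1 at -0.51 and -1.45. For CDKN1A and PLK3 the arrays of trial 2 lay above the non-injected array and those of trial 1 below it.

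BTG2 stood at -1.06 ± 0.50 and -0.98 ± 0.50, with all 4 injected arrays below the non-injected one (adjusted p = 0.296 and 0.361). CCNG1 stood at 0.44 ± 0.14 in anti-DJ1 (adjusted p = 0.138) and 0.24 ± 0.14 in IgG embryos (adjusted p = 0.425). PLK2 was within the background in non-injected embryos. With that array set to its background level, the group means of anti-DJ1 and IgG embryos stood 1.21-fold and 1.34-fold higher. These folds carry no error, and the anti-DJ1 array of trial 1, at 45.2, lay below that level, 47.0. The limma confidence intervals of PLK2 ran from -0.51 to 1.48 in anti-DJ1 and from -0.37 to 1.63 in IgG embryos. They include 0, so no increase is shown, and PLK2 did not pass (adjusted p = 0.625 and 0.514). GADD45A, RRM2B and ZMAT3 ranged from -0.32 to 0.45 over both comparisons.

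When only the upper 40% of probe sets by mean signal were tested, 2 p53 target probe sets passed in each comparison. These were the dimmer SESN1 probe set (adjusted p = 0.0162) and CCNG1 (adjusted p = 0.0375) in anti-DJ1 embryos, and the same SESN1 probe set (adjusted p = 0.0060) and PLK3 (adjusted p = 0.0034) in IgG embryos. That fit called 945 and 800 of the 9599 probe sets it tested.

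**Figure D3:**
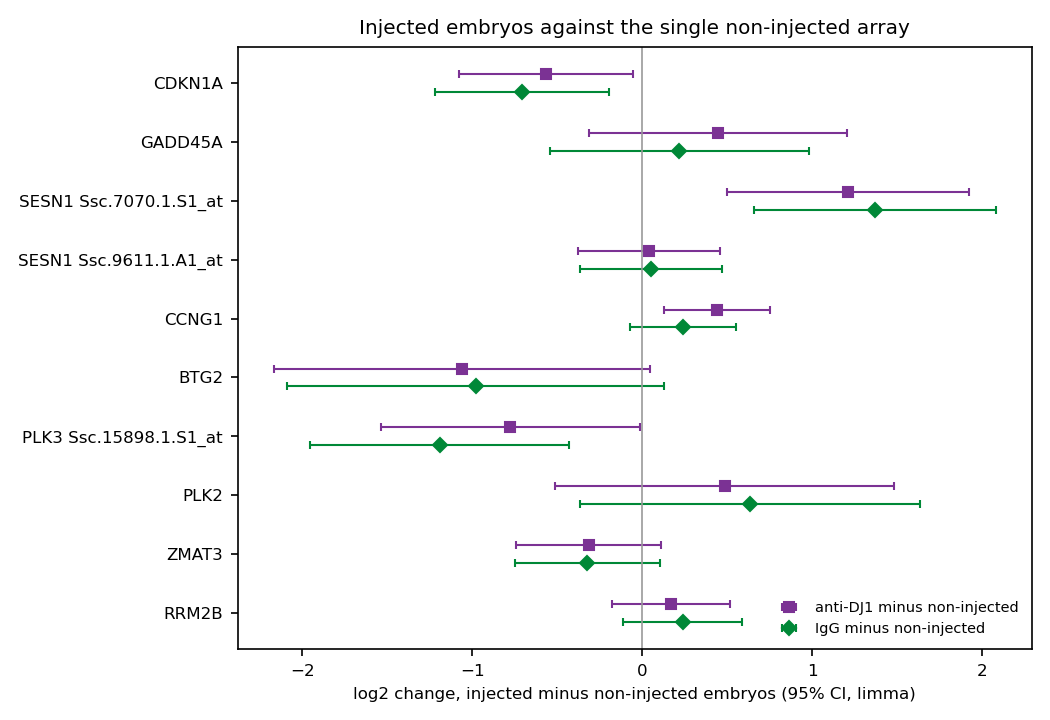
Log2 change of the 10 tested probe sets in anti-DJ1 minus non-injected embryos (squares) and in IgG minus non-injected embryos (diamonds), with 95% confidence intervals from limma. The dimmer SESN1 probe set, Ssc.7070.1.S1_at, lies above 0 in both, at 1.21 and 1.37, while the other SESN1 probe set lies at 0.04 and 0.05.

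Between embryos and the donor cells that supplied their nuclei, the p53 targets divided. CDKN1A, GADD45A, PLK2, BTG2 and CCNG1 were lower in embryos, and RRM2B, PLK3, ZMAT3 and the brighter of the SESN1 probe sets were higher. Of the 10 tested probe sets 9 passed, 4 higher and 5 lower, with a median log2 change of -0.33 against -0.14 for all tested probe sets. Of all probe sets 77.1% passed (36% higher, 41% lower), so the share among the p53 targets is near that of the array as a whole. Of all tested probe sets, 12.9% had an embryo mean under the lowest mean tested and 14.7% a donor cell signal under it, so their direction was set by the filter, and among the p53 targets this holds for PLK3. The change is the mean of the 3 embryo groups minus the single donor cell array with the trial held constant. The arrays were scaled to a common mean, so a change is relative to the other transcripts of the sample, and fewer cells and less RNA per cell cannot be told apart in such samples. The EF1A ratio was 8.20 to 30.0 on the embryo arrays against 4.23 on the donor cell array, and its part in these changes was not tested.

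The genes that stood lower were the 4 above that hold the cell cycle, and PLK2. GADD45A was 20.6-fold lower in embryos, at -4.37 ± 0.30 on the log2 scale (SE, limma, adjusted p = 2.27e-07). PLK2 was lower by a fitted 24.4-fold, at -4.61 ± 0.39 (adjusted p = 1.33e-06). That value takes in the non-injected array, which was within the background, while the other 4 embryo arrays lay above it. CDKN1A was 6.09-fold lower (-2.61 ± 0.20, adjusted p = 5.92e-07), and the highest of its 5 embryo signals, 511, compares with 1702 in donor cells. BTG2 was 3.93-fold lower (-1.98 ± 0.43, adjusted p = 0.0017). CCNG1 was lower by 1.69-fold (-0.76 ± 0.12, adjusted p = 1.95e-04). BAX, untested here, stood at -2.08 ± 0.63 (adjusted p = 0.0104) when probe sets were selected by mean log2 signal, with 2 of 5 embryo arrays within the background.

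RRM2B was the gene that stood highest in embryos relative to donor cells, 91.3-fold (6.51 ± 0.14, limma, adjusted p = 3.63e-11). All 5 embryo arrays lay between 11964 and 18887, against 184 in donor cells. PLK3, within the background in donor cells, was at least 14.4-fold higher in embryos. This bound carries no error, and since PLK3 entered the test through embryos, its direction was set by the filter. ZMAT3 was 4.44-fold higher (2.15 ± 0.17, adjusted p = 6.63e-07). SESN1 was 1.81-fold higher on its brighter probe set (0.86 ± 0.16, adjusted p = 6.68e-04) and did not pass on the dimmer one (0.10 ± 0.28, adjusted p = 0.762).

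A pair of these calls depended on the fit. With any 1 of the 4 injected arrays left out, in fits that also lack the trial term, the brighter SESN1 probe set (adjusted p from 0.0581 to 0.127) and CCNG1 (0.0989 to 0.152) no longer passed, and the other 7 did. Quantile normalization raised the median of all probe sets by 0.42, and under it the dimmer SESN1 probe set also passed, at 0.83 (adjusted p = 0.0204).

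**Figure D4:**
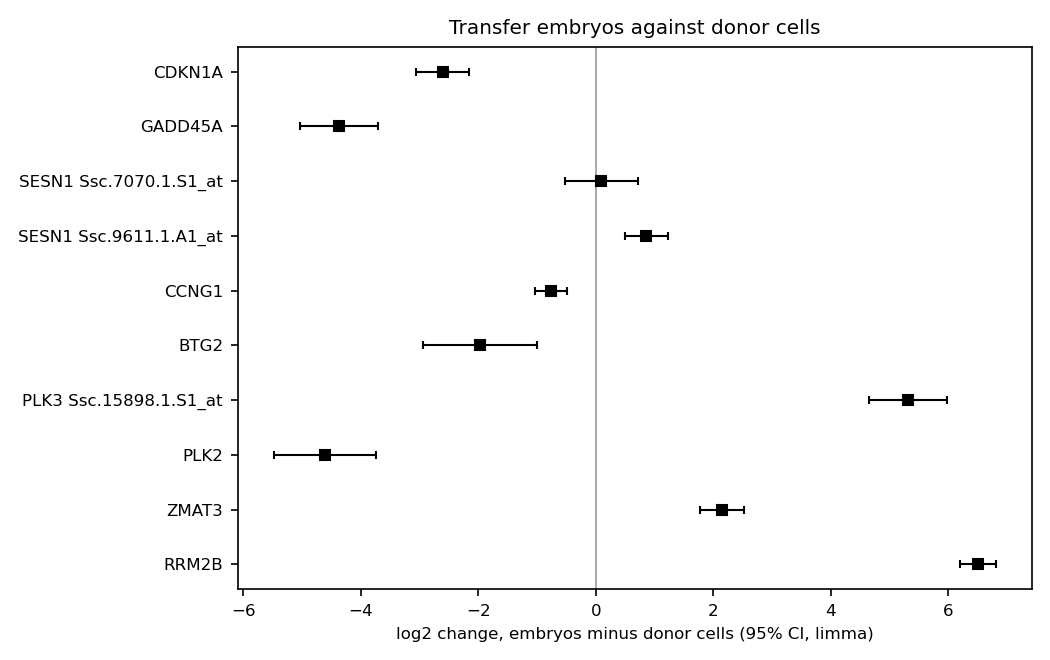
Log2 change of the 10 tested probe sets in embryos minus donor cells with 95% confidence intervals from limma. RRM2B (6.51), PLK3 (5.33, a fitted value against a background level in donor cells), ZMAT3 (2.15) and the brighter SESN1 probe set (0.86) lie above 0, and PLK2 (-4.61), GADD45A (-4.37), CDKN1A (-2.61), BTG2 (-1.98) and CCNG1 (-0.76) below it.

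Within the injected embryos CDKN1A and PLK3 were higher and RRM2B lower in trial 2 than in trial 1, a comparison made after the values were seen. Over both antibodies CDKN1A was 2.13-fold higher in trial 2 than in trial 1 (log2 change 1.09 ± 0.17, SE, limma, adjusted p = 0.0013), with 0.96 in anti-DJ1 and 1.22 in IgG embryos. PLK3 was 3.07-fold higher in trial 2 (1.62 ± 0.26, adjusted p = 0.0013), with 1.10 in anti-DJ1 and 2.14 in IgG embryos. RRM2B was 1.37-fold lower in trial 2 (-0.46 ± 0.12, adjusted p = 0.0153), with -0.66 and -0.25, and stood at 0.026 under quantile normalization.

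The other 7 probe sets did not pass, GADD45A among them at 0.58 ± 0.26 (adjusted p = 0.114), with 1.11 in anti-DJ1 and 0.06 in IgG embryos. GADD45A did pass when only the upper 40% of probe sets were tested (adjusted p = 0.0243), and BAX, untested otherwise, stood at 1.86 ± 0.55 (adjusted p = 0.0220) with the filter on mean log2 signal and did not pass with no filter (adjusted p = 0.0519). In all, 3 of the 10 passed, against 31.4% of all probe sets (18.4% higher and 13.1% lower in trial 2), so the p53 targets moved with the trial about as often as other transcripts. The median of all probe sets stood at 0.13, and under quantile normalization 1869 were higher and 2108 lower, in place of 2644 and 1880. Without the mean-variance trend 0 passed, with CDKN1A at an adjusted p of 0.0955. EF1A's 3′ over 5′ ratio was 8.20 and 9.34 in trial 2 against 24.2 and 23.9 in trial 1, and its part in these differences was not tested.

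Other genes of the pathway were read from a pair of lists, chosen with earlier results of these data known. Of 26 regulators of p53, such as kinases that activate it and proteins that control its stability, 16 were tested, and of 38 further targets, 20. Neither list had a member that passed between anti-DJ1 and IgG embryos or between either and non-injected embryos. Of all probe sets 0% passed between anti-DJ1 and IgG embryos. Against non-injected embryos 1.03% passed for anti-DJ1 and 0.472% for IgG. With shares this low, lists of this size would hold few calls or none, so these counts do not set the lists apart. Between trials, a comparison made after the values were seen, 10 of the 16 regulators passed (5 higher, 5 lower in trial 2). Of the 20 further targets 9 passed (6 higher, 3 lower), against 31.4% of all probe sets. PARK7 was higher in trial 2, at 1.35 ± 0.14 (limma, adjusted p = 1.60e-04). Without the mean-variance trend 0 of either list passed, and the causes were not tested. The p53 gene itself was not analysed here.

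Between anti-DJ1 and IgG embryos 10 of the 16 regulators were positive (median log2 change 0.08) and 10 of the 20 further targets (median 0.02), against a median of -0.0062 for all probe sets. The regulators with the lowest unadjusted p were CHEK1, the checkpoint kinase of stalled replication (0.52 ± 0.12, limma, adjusted p = 0.879, and 0.0044 when only the upper 40% of probe sets were tested), and RPL11, a ribosomal protein that binds the p53 ligase MDM2 (0.20 ± 0.12). PARK7 itself stood at -0.15 ± 0.14 (adjusted p = 0.941). Among further targets TNFRSF1A, a death receptor, had signals of 147 and 163 on the anti-DJ1 arrays and of 276 and 212 on those of IgG embryos. Its change of -0.63 ± 0.21 did not pass (adjusted p = 0.879). The growth arrest gene GADD45G stood at 0.65 ± 0.33 (adjusted p = 0.904) and BTG1, a relative of BTG2, at 0.37 ± 0.20 (adjusted p = 0.918). For both, the trials pointed in opposite directions. GADD45G had 156 and 212 in anti-DJ1 embryos of trials 1 and 2 against 58.1 and 221 in IgG embryos. BTG1 had 545 and 661 against 575 and 374.

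Against the non-injected array, the further targets with the lowest adjusted p were IER3 and PCNA in anti-DJ1 embryos, and IER3 and PRDX1 in IgG embryos. IER3, a stress-induced survival gene, had 11083 and 8658 in anti-DJ1 embryos, 9912 and 8839 in IgG embryos and 16509 in non-injected embryos. Its log2 change was -0.62 ± 0.13 in anti-DJ1 (limma, adjusted p = 0.0612) and -0.69 ± 0.13 in IgG embryos (adjusted p = 0.0540). PCNA, the sliding clamp of DNA replication, had 29895 and 15876 in anti-DJ1 embryos, 29066 and 18666 in IgG embryos and 43696 in non-injected embryos. It stood at -0.62 ± 0.14 (adjusted p = 0.0652) and -0.52 ± 0.14 (adjusted p = 0.108), and at 0.010 in anti-DJ1 embryos under quantile normalization. IER3 passed in both comparisons and PCNA in that of anti-DJ1 with a pseudocount at the 25th percentile of signals. PRDX1, a peroxiredoxin, had 1457 and 3262 in IgG embryos against 888 in non-injected embryos, and stood at 0.66 ± 0.16 (adjusted p = 0.0922).

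Between embryos and donor cells, 14 of the 16 regulators passed (6 higher, 8 lower; median -0.37), and 17 of the 20 further targets (4 higher, 13 lower; median -2.67), against 77.1% and a median of -0.14 over all probe sets. These counts are a description, since 1 lower regulator (RPL23) and 4 lower further targets (BID, TP53I3, FDXR and GADD45B) had an embryo mean under the lowest mean tested and entered the test through donor cells, and DDB2 and CDC25C entered it through embryos. RPL23, BID, FDXR, TP53I3 and CDC25C were named after their values were seen. Regulators that stood higher in embryos included CHEK1, with 4962 to 9299 on the 5 embryo arrays against 156 in donor cells (5.71 ± 0.14, limma, adjusted p = 8.88e-11). PPM1D, a phosphatase that switches p53 signalling off, had 6125 to 7886 in embryos against 459 in donor cells (4.03 ± 0.12, adjusted p = 4.67e-10). USP7, a deubiquitinase of MDM2 and p53, was also higher (3.30 ± 0.14, adjusted p = 6.92e-09). RPL11 (-2.92 ± 0.14, adjusted p = 1.27e-08) and PARK7 (-3.07 ± 0.16, adjusted p = 2.85e-08) were lower in embryos. PARK7 had 446 to 1272 on the embryo arrays against 4153 in donor cells.

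The 4 further targets that were higher in embryos were PCNA, DDB2, SFN and CASP6, the last 2 named after their values were seen. PCNA had 15876 to 43696 in embryos against 349 in donor cells (6.57 ± 0.12, limma, adjusted p = 1.48e-11). DDB2, which recognises ultraviolet damage to DNA, had 227 to 679 in embryos and was within the background in donor cells. It was at least 10.4-fold higher, a bound without error, and its direction was set by the filter. SFN stood at 1.60 ± 0.30 and the executioner caspase gene CASP6 at 0.999 ± 0.13. Those that were lower included THBS1, a secreted matrix protein that fibroblasts make (-6.81 ± 0.28, adjusted p = 4.26e-09), and SOD2, the mitochondrial superoxide dismutase (-4.39 ± 0.25, adjusted p = 4.99e-08). With 1 injected array left out and no trial term, 9 to 11 regulators and 15 further targets passed, the lowest count, 9, without IgG replicate 2.

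**Figure D5:**
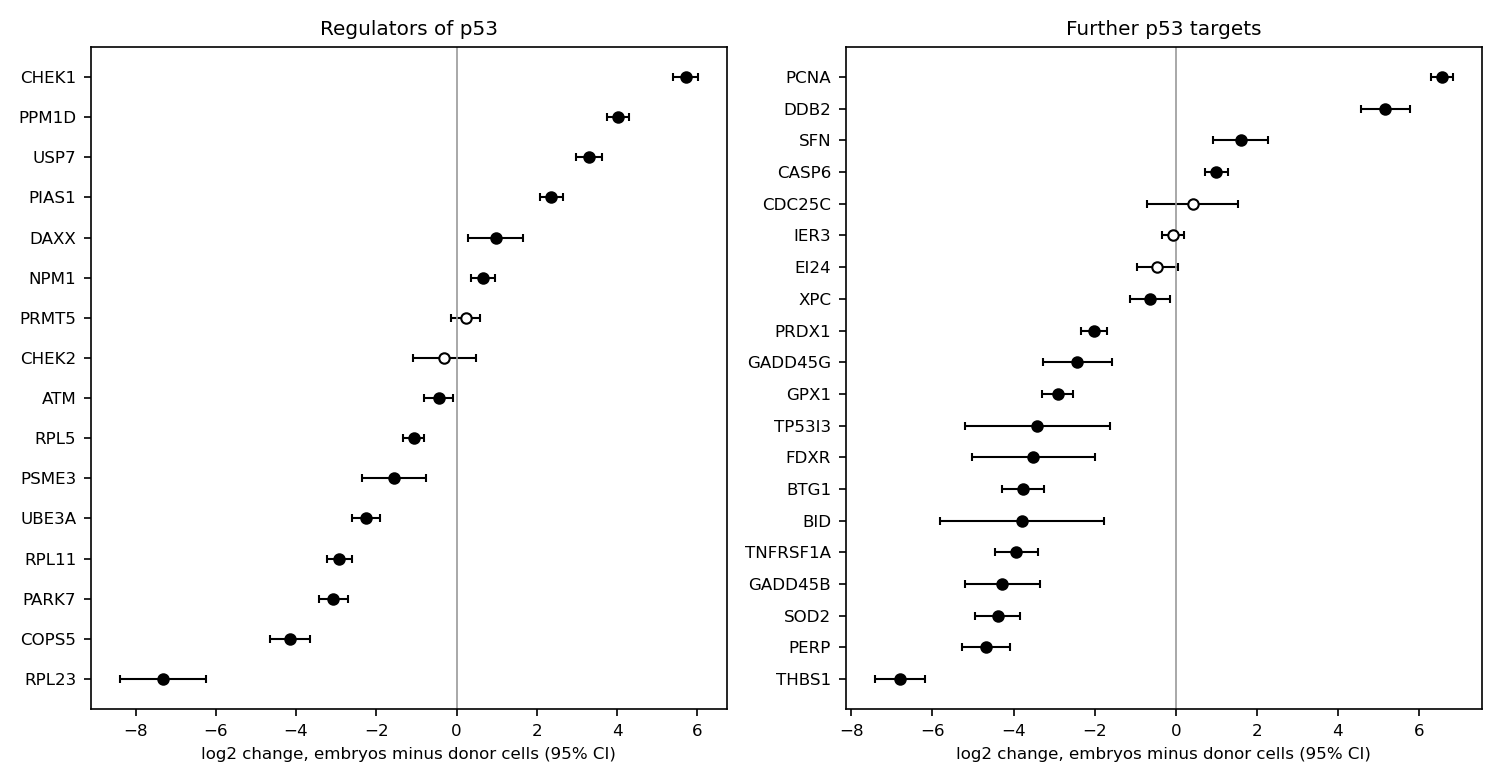
Log2 change in embryos minus donor cells of the 16 tested regulators of p53 (left) and the 20 tested further targets (right), with 95% confidence intervals from limma, filled where the adjusted p passed 0.05. CHEK1 and PPM1D lead the regulators and PCNA the further targets, while 13 of 20 further targets are filled points below 0. DDB2 is within the background in donor cells and BID in all embryos, so these 2 points are fitted values, with bounds of at least 10.4-fold higher and 7.96-fold lower in embryos.

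The 3 named genes whose profile over the 6 arrays came closest to that of CDKN1A, by the root mean square difference of mean-centred log2 values, were RPL10A (0.12), COPZ1 (0.12) and ZNF655 (0.15). RPL10A, a ribosomal protein, had 747 and 1302 in anti-DJ1 embryos, 547 and 1319 in IgG embryos, 844 in non-injected embryos, with 4982 in donor cells. COPZ1, a coatomer subunit, had 278 and 498 in anti-DJ1 embryos, 259 and 568 in IgG embryos, 375 in non-injected embryos, with 1585 in donor cells. Each was highest in donor cells, and in both injected groups higher in trial 2 than in trial 1, as CDKN1A was. Since these genes were chosen for likeness over the same arrays, the shared pattern follows from the choice. How many other probe sets lie about as close was not counted.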

How the data were processed

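The submitters' processing notes name MAS5, whose signal is a linear intensity per probe set, and the deposited values were used in that form. No source used here gives its version, a scaling target or detection calls. Labelling used 50 ng of total RNA per sample and 2 cycles of amplification, per the labels' protocols. The 24123 probe sets include 124 controls, which were left out of the tests. The platform annotation, updated through gene identifiers, gave a single symbol to 10069 of the others, several to 198 and none to 13732, and it can be old.

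Signals were set to log2(signal + 4.60), the constant being the 10th percentile of all signals, which understates changes of dim probe sets. Tests used limma 3.58.1 (lmFit, eBayes with a mean-variance trend, two-sided) in R 4.3.3, with group and trial as terms, 1 residual degree of freedom and 9.18 prior ones. Errors beside log2 changes are standard errors. The design text names each trial's IgG array as that trial's control, which pairs the arrays. Deviations of same-trial anti-DJ1 and IgG arrays from their group means correlated at r = 0.559 over 14399 probe sets, which are not independent replicates. Tested on simulated data, the fit recovered the size of known changes but made more false calls (16.8% of its calls) than its threshold allows.

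The members and lists were chosen with earlier results of these data known. Every probe set of the 10 genes is named, and from each further list up to 4 genes with the lowest unadjusted p in a comparison, and PARK7. Where a probe set was within the highest Tag control on all arrays of a group, a fold is a bound from group means of log2(signal + 4.60), each dim array at the higher of its signal and that control, with no term for the trial. The number of arrays limits the precision. Alternatives were quantile normalization, another pseudocount, other filters, no trial term, no trend, and leaving out each replicate. A filter on mean log2 signal was added after seeing the data.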

Additional observations from a re-analysis of the deposited data

How the results depend on the processing

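Between anti-DJ1 and IgG embryos 0 p53 target probe sets passed under every alternative, while the count over all probe sets, 0, was 1 with a pseudocount at the 25th percentile and 58 with only the upper 40% tested, where 1 regulator passed. Against non-injected embryos, the counts of 149 for anti-DJ1 and 68 for IgG became 279 and 186 with a filter on mean log2 signal, 355 and 236 with the other pseudocount, 71 and 48 with no filter, 945 and 800 with the upper 40%, and 0 and 0 without the trend, without the replicate block or without any 1 replicate. In those 2 comparisons 2 and 2 p53 target probe sets passed with the upper 40%, in place of 0, and of the further targets, also 0 otherwise, 3 and 3 passed there and 2 and 1 with the log2 filter or the other pseudocount. In the trial comparison 4524 probe sets (31.4%), 3 of 10 p53 target probe sets, 10 of 16 regulators and 9 of 20 further targets passed. These counts were all 0 without the trend, and the regulators were 5 under quantile normalization and 6 with no filter. The causes were not tested.

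Without the replicate block, which pairs the arrays of a trial, PLK3 (0.035), RRM2B (-0.058) and PARK7 (0.53) reversed in anti-DJ1 against non-injected embryos, and the block changed no call of a p53 target. Quantile normalization reversed NPM1 (0.12) and PCNA (0.010) in anti-DJ1 and PARK7 (-0.025) in IgG against non-injected embryos, and RRM2B (0.026) and NPM1 (0.059) between trials.

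Leaving out 1 replicate needs fits without the trial term, which unbalances the trials. Reversed log2 changes in anti-DJ1 against IgG embryos then ranged from -0.47 to 0.75 for CDKN1A, -0.33 to 0.78 for GADD45A, -0.36 to 0.052 for the dimmer and -0.17 to 0.15 for the brighter SESN1 probe set, -0.59 to 0.42 for BTG2, -0.66 to 1.49 for PLK3, -0.48 to 0.18 for PLK2, -0.10 to 0.12 for ZMAT3, -0.40 to 0.26 for RRM2B, -0.10 to 0.50 for RPL11, -0.86 to 0.56 for PARK7, -0.89 to 0.50 for PRDX1 and -0.27 to 1.57 for GADD45G. In anti-DJ1 against non-injected embryos they were -0.50 to 0.46 for CDKN1A, -0.51 to 0.58 for PLK3, -0.39 to 0.27 for RRM2B, -0.14 to 0.29 for RPL5 and -0.18 to 1.24 for PARK7. In IgG against non-injected embryos they were -0.77 to 0.45 for CDKN1A, -0.019 to 0.30 for the brighter SESN1 probe set, -0.041 to 0.29 for CCNG1, -1.45 to 0.69 for PLK3, -0.11 to 0.14 for RRM2B, -0.078 to 0.20 for RPL5 and -0.84 to 0.74 for DAXX. In embryos against donor cells the dimmer SESN1 probe set ranged from -0.049 to 0.089, and 9 to 11 regulators passed.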
